A study of Arabidopsis thaliana with 8 samples.

Results

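The genotype by phosphate interaction was measured in Arabidopsis thaliana roots as the low-phosphate response of bzr1-D minus the low-phosphate response of wild type, over all 8 of the 8 libraries of the series. Both genotypes were in the Columbia-0 (Col-0) background and were raised on Murashige and Skoog medium with 0.2% sucrose. Seedlings were moved at day 6 to low inorganic phosphate (Pi, 1 µM) or adequate Pi (0.625 mM), and their roots were taken 24 h later, at 7 days of age. The 4 groups were bzr1-D at low Pi, bzr1-D at adequate Pi, wild type at low Pi and wild type at adequate Pi, each with 2 libraries of polyadenylated RNA that the labels call biological replicates and number as experiment (Exp) 1 and 2. The sources used here do not give the number of seedlings behind a library. In bzr1-D, a dominant mutation keeps the BZR1 protein active. Both Pi supplies were applied to that 1 line, and no other mutant line was analysed here.

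Plants short of Pi raise Pi uptake and recycle the phosphate they hold. Much of that program is driven by PHR1, a transcription factor held back by SPX proteins when Pi is ample. One branch replaces membrane phospholipids with galactolipids and sulfolipids, which contain no phosphorus. BZR1 carries the brassinosteroid signal to the genes it binds in the nucleus, and brassinosteroids promote cell elongation, partly through genes of the cell wall. The title of the series names nutrient supply and steroid hormone signals as joint influences on root growth, and the interaction asks which transcripts answered low Pi differently where BZR1 is kept active.

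Total counts ran between 15947895 and 22150569 per library, so that 1 CPM (counts per 1000000, after scaling) stood for at least 16.1 counts. All 12 root markers, among them SCR, CASP1 and PIN2, had counts in every library, and their summed level was 1190 to 1440 CPM. The 14 markers of shoot tissue summed to between 55.0 and 109 CPM, with 4 of them at 0 in wild type at adequate Pi in Exp 2. BZR1 itself had 27.9 and 30.1 CPM in bzr1-D at low Pi, 28.7 and 33.9 CPM in bzr1-D at adequate Pi, 32.0 and 32.9 CPM in wild type at low Pi and 28.1 and 30.3 CPM in wild type at adequate Pi. Here and below, Exp 1 stands before Exp 2. The allele is known to act through the stability of the protein, so this transcript level is no check of the genotype labels.

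The low-Pi response of most transcripts differed between the 2 genotypes by less than the replicate error could resolve. No feature of 20262 tested passed an adjusted p of 0.05 as higher in bzr1-D (0%), and none as lower (0%), with Exp as block in edgeR (quasi-likelihood test, Benjamini-Hochberg adjustment over all features). An unadjusted p under 0.05 was reached by 371 features with a higher response in bzr1-D (1.83% of those tested) and by 275 with a lower one (1.36%). These counts depend on the fit, with 73 and 86 without the block, 164 and 62 with DESeq2, and 176 to 611 and 166 to 449 with 1 library left out. DESeq2 called 1 feature higher (0.00373% of 26782) and 0 lower, edgeR without a filter on low counts called 1 (0.00373%) and 0, and limma-voom called 0 and 0. The standard error of the difference had a median of 0.18 on the log2 scale, and of 0.15 for features with a mean of at least 10 CPM. The smallest difference with an unadjusted p under 0.05 was 0.25. In whole roots, fewer cells of a type and less RNA per cell cannot be told apart.

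Each genotype's own Pi response in the same fit shows what was being compared. In bzr1-D, 4 features rose (0.0197% of those tested) and 0 fell at an adjusted p under 0.05, with 601 higher (2.97%) and 249 lower (1.23%) at an unadjusted p under 0.05. They were UMAMIT38, PCK2, GDPD2 and PHT1;8, a Pi transporter. In wild type, 13 rose (0.0642%) and 4 fell (0.0197%), with 626 higher (3.09%) and 469 lower (2.31%) at an unadjusted p under 0.05. PCK2 and GDPD2 were called in both genotypes. The features that fell in wild type were CER4, XTH17, AT3G19430 and CYP82C2, a cytochrome P450 that had 0.055 and 2.54 CPM in wild type at low Pi and 0.203 and 18.9 CPM in wild type at adequate Pi. Of the 17 called in wild type, 7 also had an unadjusted p under 0.05 for the difference, and both measures use the same wild-type libraries.

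The 646 features at an unadjusted p under 0.05 (3.19%) mostly had fitted Pi responses of opposite sign in the 2 genotypes. Among the 371 with a higher response in bzr1-D, 308 (83.0%) had a positive log2 fold change at low Pi in bzr1-D and a negative one in wild type, against 22.5% of all features. Among the 275 with a lower response, 236 (85.8%) were negative in bzr1-D and positive in wild type, against 22.6% of all features. A large difference favours opposite signs by construction, so these shares are a description. Many of these signs belong to small responses. The bzr1-D response itself had an unadjusted p under 0.05 by edgeR in 113 of the 371 (30.5%) and 68 of the 275 (24.7%). The wild-type response did so in 192 (51.8%) and 140 (50.9%). Over all features the shares were 4.2% and 5.4%. The wild-type response was the larger of the 2 in 226 of the 371 (60.9%) and in 173 of the 275 (62.9%), against 49.1% of all features.

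The size of the difference did not carry over between experiments for most features. Each Exp holds 1 library per group, so it gives the difference once, from 4 libraries that the other Exp does not share. Across the 12814 features with a mean of at least 10 CPM, the difference in Exp 1 and the difference in Exp 2 had Pearson's r of -0.08 and Spearman's rho of -0.16, and 43.6% had the same sign. These are correlations across genes, which are not independent replicates. For comparison, the Pi response alone had r of 0.35 between experiments in bzr1-D and 0.42 in wild type. The extremes were shared more often. Of the 100 features with the largest difference in Exp 1, 59 had the same sign in Exp 2, and of the 100 largest in Exp 2, 77 had the same sign in Exp 1.

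**Figure D1:**
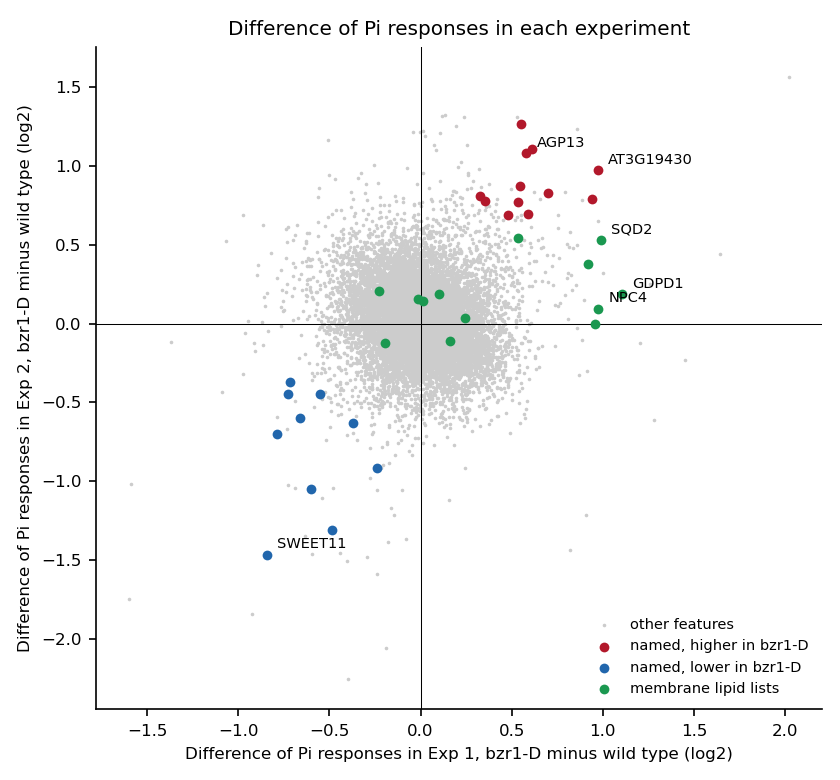
Difference of the log2 Pi responses, bzr1-D minus wild type, in Exp 1 (horizontal axis) and Exp 2 (vertical axis) for the 12814 features with a mean of at least 10 CPM, each point being 1 feature. Named features and members of the membrane lipid lists are coloured; the cloud shows no positive slope (r of -0.08), while AT3G19430 lies at 0.97 on both axes.

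The 24 features described next were the 12 with the smallest p in each direction among those with the same sign in both experiments and a mean of at least 1 CPM, so that agreement between experiments is part of how they were chosen. Those with a higher response in bzr1-D include AGP13, AGP14, AGP22, XTH17, PME2 and CER4. Those with a lower one include SWEET11, 5PTASE11, NIT4 and CNGC12. None of them passed the adjusted threshold.

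AT3G19430, annotated as a late embryogenesis abundant protein-like gene, came closest (chromosome 3, 6736184 to 6738330 in the deposited table). It had 49.1 and 30.2 CPM in bzr1-D at low Pi, 38.6 and 23.6 CPM in bzr1-D at adequate Pi, 32.8 and 20.6 CPM in wild type at low Pi and 51.0 and 32.1 CPM in wild type at adequate Pi. Within each experiment it was higher at low Pi in bzr1-D and lower at low Pi in wild type. The difference was 0.99 ± 0.12 (log2, SE) and adjusted p was 0.0788 by edgeR. It was 0.97 in each experiment and lay between 0.97 and 1.01 under 16 other settings, with adjusted p between 0.0134 (DESeq2) and 1.00, below 0.05 in 5 of them. In wild type alone the gene fell by 0.64 on the log2 scale (SE 0.09, adjusted p = 0.0195 by edgeR), and in bzr1-D its fold change was 0.35 ± 0.09 (adjusted p = 0.34).

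The 250 bases before the start of AT3G19430 hold a P1BS element, the sequence GNATATNC to which PHR1 is known to bind, and are shown because this gene had the smallest p. They are RefSeq TAIR10.1 sequence of the minus strand, chr3:6738519-6738768, written 5′ to 3′ with the element in capitals.
AT3G19430: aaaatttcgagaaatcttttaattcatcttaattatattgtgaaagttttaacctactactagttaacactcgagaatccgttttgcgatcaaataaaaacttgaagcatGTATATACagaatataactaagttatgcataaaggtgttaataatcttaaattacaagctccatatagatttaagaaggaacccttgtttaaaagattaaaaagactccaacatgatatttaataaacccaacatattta
The element starts 140 bases before the annotated gene start. Among 27442 promoters of the same length, 5.5% hold P1BS on either strand. Of the 12 features with a higher response, 3 hold it (AT3G19430, SDR4 and UGT84A2), and 0 of the 12 with a lower response do. A match is a run of letters and no measurement of binding.

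Arabinogalactan proteins are heavily glycosylated proteins of the cell surface and wall, and AGP13, AGP22 and AGP14 were all among the 12. AGP13 had 46.4 and 39.5 CPM in bzr1-D at low Pi, 41.7 and 31.7 CPM in bzr1-D at adequate Pi, 34.7 and 21.4 CPM in wild type at low Pi and 46.8 and 37.0 CPM in wild type at adequate Pi. The 2 wild-type libraries at low Pi held its lowest level in each experiment, and the difference was 0.83 ± 0.16. AGP14 had 95.9 and 95.3 CPM in bzr1-D at low Pi, 97.7 and 83.6 CPM in bzr1-D at adequate Pi, 69.4 and 56.6 CPM in wild type at low Pi and 88.6 and 87.4 CPM in wild type at adequate Pi. Its wild-type libraries at low Pi lay below the other 6 libraries, with a difference of 0.57 ± 0.13. AGP22 had 65.1 and 62.5 CPM in bzr1-D at low Pi, 58.6 and 54.1 CPM in bzr1-D at adequate Pi, 87.9 and 65.1 CPM in wild type at low Pi and 116 and 104 CPM in wild type at adequate Pi. AGP22 stood at its highest in wild type at adequate Pi, and the difference was 0.71 ± 0.14. Adjusted p was 1.00 for each of the 3 by edgeR. The family was looked at after these values were seen. Of 27 features with an AGP symbol, these 3 included, 18 had a positive difference and 9 a negative one. An unadjusted p under 0.05 was reached by 7 and 1 of them. Without the 3, 15 of 24 were positive and 9 negative, with 4 and 1 at an unadjusted p under 0.05. The median of these 24 was 0.10 (range -1.01 to 0.56). Over all features, 51.1% had a positive difference, and 1.83% and 1.36% had an unadjusted p under 0.05 as higher and lower.

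XTH17, a xyloglucan endotransglucosylase/hydrolase that cuts and rejoins wall xyloglucan, had 60.1 and 40.4 CPM in bzr1-D at low Pi, 59.4 and 41.8 CPM in bzr1-D at adequate Pi, 47.0 and 32.4 CPM in wild type at low Pi and 67.5 and 57.5 CPM in wild type at adequate Pi. It fell in wild type by 0.68 on the log2 scale (SE 0.10, adjusted p = 0.0318 by edgeR), whereas its fold change in bzr1-D was -0.01 ± 0.10. The difference between the 2 responses was 0.66 ± 0.14 (unadjusted p = 5.1e-04, adjusted p = 1.00 by edgeR). PME2, a pectin methylesterase, had 96.2 and 84.6 CPM in bzr1-D at low Pi, 94.3 and 76.0 CPM in bzr1-D at adequate Pi, 62.1 and 46.9 CPM in wild type at low Pi and 77.9 and 72.6 CPM in wild type at adequate Pi. Its difference was 0.57 ± 0.13. The close relatives XTH18 and XTH19, in the list of growth genes raised by brassinosteroid, had differences of 0.04 ± 0.24 and 0.32 ± 0.18.

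CER4, a fatty acyl-CoA reductase that makes the primary alcohols of surface waxes, had 23.4 and 16.1 CPM in bzr1-D at low Pi, 23.1 and 18.0 CPM in bzr1-D at adequate Pi, 13.6 and 8.16 CPM in wild type at low Pi and 22.1 and 16.6 CPM in wild type at adequate Pi. It fell in wild type by 0.85 on the log2 scale (SE 0.12, adjusted p = 0.0294 by edgeR), and its fold change in bzr1-D was -0.06 ± 0.11. The difference was 0.79 ± 0.17, with an adjusted p of 1.00 by edgeR. FAR1, FAR4 and FAR5, reductases of the same family that serve suberin, had differences of 0.10, 0.06 and 0.16, each within 2 standard errors of 0.

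UGT84A2, a glycosyltransferase that acts on sinapate, had 50.4 and 25 CPM in bzr1-D at low Pi, 36.9 and 18.9 CPM in bzr1-D at adequate Pi, 28.0 and 19.1 CPM in wild type at low Pi and 39.7 and 25.3 CPM in wild type at adequate Pi. Within each experiment its level was higher at low Pi in bzr1-D and lower at low Pi in wild type, and the difference was 0.89 ± 0.17. The bifunctional nuclease BFN1, known from dying xylem and senescing cells, had a difference of 0.94 ± 0.21, and within each experiment its lowest level was in wild type at low Pi. The remaining 3 were SDR4 (0.64 ± 0.13), the leucine-rich repeat kinase AT3G21340 (0.88 ± 0.19) and AT3G59370, a vacuolar calcium-binding protein-like gene (0.59 ± 0.14).

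**Figure D2:**
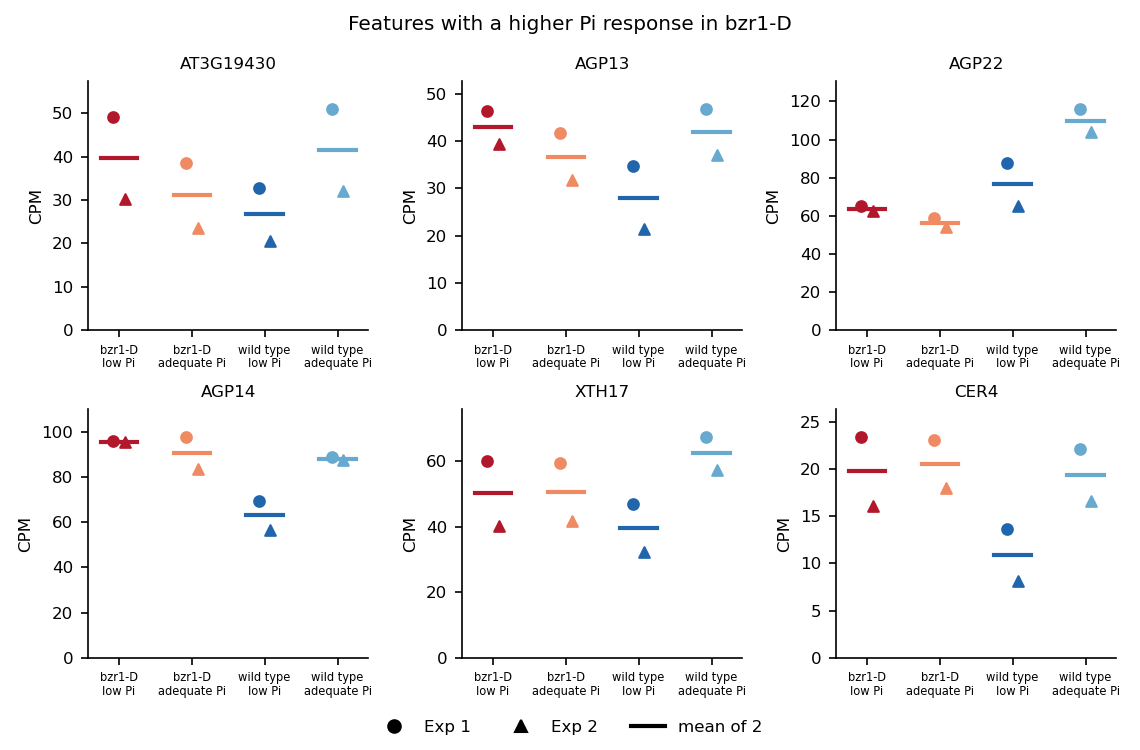
Level in CPM (vertical axes, from 0) of 6 features with a higher Pi response in bzr1-D, in the 4 groups; circles are Exp 1, triangles Exp 2 and bars the mean of the 2 libraries. In wild type each feature stands lower at low Pi than at adequate Pi in both experiments, as with CER4 at 13.6 and 8.16 CPM against 22.1 and 16.6 CPM.

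SWEET11, a sucrose exporter that feeds the phloem, led the features with a lower response in bzr1-D. It had 20.4 and 16.6 CPM in bzr1-D at low Pi, 35.6 and 37.8 CPM in bzr1-D at adequate Pi, 17.8 and 13.3 CPM in wild type at low Pi and 17.1 and 10.7 CPM in wild type at adequate Pi. Both bzr1-D libraries at adequate Pi lay above the other 6 libraries, which overlapped one another. The difference was -1.18 ± 0.22 (unadjusted p = 3.8e-04, adjusted p = 1.00 by edgeR), made of -1.0 ± 0.15 in bzr1-D (adjusted p = 0.09) and 0.18 ± 0.16 in wild type. It was -0.84 in Exp 1 and -1.47 in Exp 2.

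CNGC12, a cyclic nucleotide-gated channel, was the other feature whose response was larger in bzr1-D. It had 17.1 and 17.4 CPM in bzr1-D at low Pi, 23.5 and 23.0 CPM in bzr1-D at adequate Pi, 24.5 and 25 CPM in wild type at low Pi and 22.7 and 24.1 CPM in wild type at adequate Pi. Its bzr1-D libraries at low Pi lay apart from the other 6, and the difference was -0.51 ± 0.14. In the other 10 features the wild-type response was the larger of the 2. 5PTASE11, an inositol polyphosphate 5-phosphatase, had 2.66 and 3.28 CPM in bzr1-D at low Pi, 3.28 and 4.72 CPM in bzr1-D at adequate Pi, 5.06 and 11.6 CPM in wild type at low Pi and 2.48 and 4.86 CPM in wild type at adequate Pi. The difference was -1.58 ± 0.32.

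NIT4, a nitrilase, had 7.76 and 12.4 CPM in bzr1-D at low Pi, 9.52 and 13 CPM in bzr1-D at adequate Pi, 19.0 and 29.0 CPM in wild type at low Pi and 13.2 and 18.4 CPM in wild type at adequate Pi. Within each experiment NIT4 was highest in wild type at low Pi, with a difference of -0.77 ± 0.16. AT2G34930, a leucine-rich repeat gene annotated to disease resistance, had 10.3 and 10.8 CPM in bzr1-D at low Pi, 9.26 and 11.6 CPM in bzr1-D at adequate Pi, 15.7 and 23.8 CPM in wild type at low Pi and 9.98 and 9.94 CPM in wild type at adequate Pi. It rose in wild type (0.97 ± 0.15, adjusted p = 0.0441 by edgeR), and its fold change in bzr1-D was 0.03 ± 0.16. The difference was -0.94 ± 0.22.

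AT4G31000, a calmodulin-binding protein gene, had a difference of -0.86 ± 0.18, with 17.2 and 14.9 CPM in bzr1-D at low Pi, 19.0 and 17.0 CPM in bzr1-D at adequate Pi, 20.0 and 23.3 CPM in wild type at low Pi and 14.4 and 12.5 CPM in wild type at adequate Pi. WOX11, a homeobox factor that founds new root primordia, was low in every library, at 0.868 and 0.791 CPM in bzr1-D at low Pi, 1.04 and 1.62 CPM in bzr1-D at adequate Pi, 1.32 and 3.51 CPM in wild type at low Pi and 0.506 and 1.12 CPM in wild type at adequate Pi. Its difference was -2.16 ± 0.55, which at this depth rests on few counts. The other 5 were AT1G52720, SIS, the aspartyl protease AT1G03230, the resistance gene AT3G44670 and AT1G67148, with differences between -0.66 and -0.51.

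**Figure D3:**
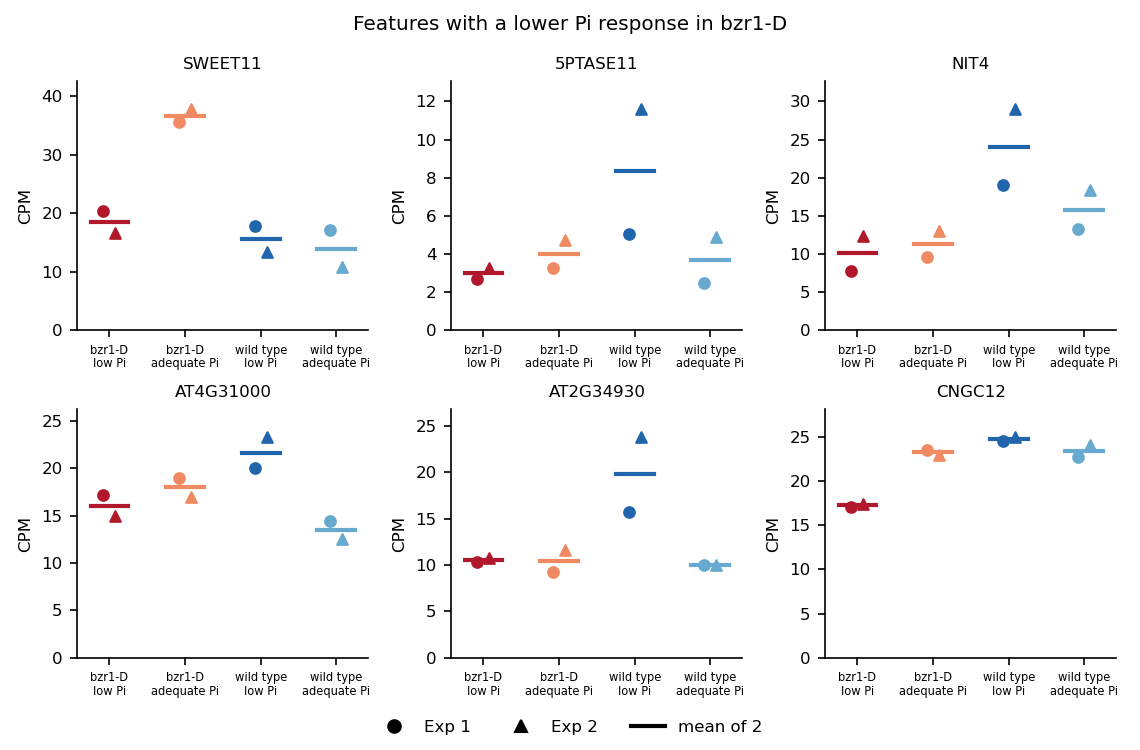
Level in CPM (vertical axes, from 0) of 6 features with a lower Pi response in bzr1-D, in the 4 groups; circles are Exp 1, triangles Exp 2 and bars the mean of the 2 libraries. SWEET11 stands apart in bzr1-D at adequate Pi (35.6 and 37.8 CPM), whereas NIT4, 5PTASE11, AT4G31000 and AT2G34930 are highest in wild type at low Pi within each experiment.

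In the same 250-base window, the brassinosteroid response element (CGTGTG or CGTGCG), known to be bound by BZR1, is in 6.7% of promoters. It is in 0 of the 12 features with a higher response and in 3 of the 12 with a lower one, which were SWEET11, AT2G34930 and AT1G52720. The G-box (CACGTG), which BZR1 also binds, is in 6.5% of promoters, in 0 of the 12 and in 1 of the 12. The W-box (TTGACC or TTGACT), bound by WRKY factors, is in 28.4% of promoters, in 0 of the 12 with a higher response and in 6 of the 12 with a lower one. These counts are a description of small groups and were not tested.

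Gene lists were then read across the interaction. Of 298 list members, 260 were tested, 12 were not found by name in the reference and 26 had too few counts. Among the 260, 14 had an unadjusted p under 0.05 with a higher response in bzr1-D and 2 with a lower one, or 6.15%, against 3.19% of all features. The lists were chosen with earlier results of these data known, so these shares are a description. No member passed the adjusted threshold. Counts of positive and negative members below stand against 51.1% of all features with a positive difference. In both experiments the difference was positive for 4650 of the 20262 features and negative for 4720. Members of a list were measured in the same 8 libraries and are not independent replicates.

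The list of galactolipid and sulfolipid synthesis had the highest median difference of the lists over both experiments, though within Exp 2 iron storage (0.48) and flavonoids (0.29) lay above it. In it 7 of 8 members had a positive difference and 3 had an unadjusted p under 0.05, with a median of 0.56 against 0.00 over all features. The median was 0.94 within Exp 1 and 0.28 within Exp 2, and with 1 library left out it lay between 0.29 (without wild type low Pi replicate 1) and 0.85 (without wild type low Pi replicate 2). In the list of phospholipid breakdown, 7 of 9 tested members were positive, 2 had an unadjusted p under 0.05 and the median was 0.15. With 1 library left out, that median lay between 0.10 and 0.58 (without wild type low Pi replicate 2). It was 0.46 without bzr1-D low Pi replicate 2. The remaining 2 of its 11 members had too few counts.

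In sulfolipid synthesis UGP3 makes UDP-glucose, SQD1 turns it into UDP-sulfoquinovose and SQD2 moves the sugar to the lipid. SQD2 had 136 and 102 CPM in bzr1-D at low Pi, 65.0 and 56.9 CPM in bzr1-D at adequate Pi, 58.4 and 69.6 CPM in wild type at low Pi and 55.8 and 56.2 CPM in wild type at adequate Pi. Both bzr1-D libraries at low Pi lay above the other 6, and the difference was 0.76 ± 0.19 (unadjusted p = 0.0034, adjusted p = 1.00 by edgeR). It was 0.99 in Exp 1 and 0.53 in Exp 2, and 0.54 to 1.01 with 1 library left out. Without bzr1-D low Pi replicate 2 the difference was 0.98 ± 0.16, but bzr1-D at low Pi was then represented by its replicate 1 alone. SQD1 had 42.9 and 40.3 CPM in bzr1-D at low Pi, 18.6 and 17.3 CPM in bzr1-D at adequate Pi, 18.3 and 30.4 CPM in wild type at low Pi and 15.1 and 17.0 CPM in wild type at adequate Pi. Its 2 bzr1-D libraries at low Pi were again the highest, with a difference of 0.62 ± 0.28 that was 0.28 without wild type low Pi replicate 1 and 1.04 without wild type low Pi replicate 2. UGP3, which overlaps the neighbouring AT3G56030, had a difference of 0.50 ± 0.23, with 0.96 in Exp 1 and -0.00 in Exp 2.

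MGD2 and MGD3 are the monogalactosyldiacylglycerol synthases that plants use when Pi is short, and MGD1 is the constitutive one. MGD3 had 9.55 and 5.99 CPM in bzr1-D at low Pi, 2.70 and 2.11 CPM in bzr1-D at adequate Pi, 1.21 and 2.32 CPM in wild type at low Pi and 2.13 and 1.71 CPM in wild type at adequate Pi. MGD2 had 6.43 and 4.63 CPM in bzr1-D at low Pi, 2.03 and 2.30 CPM in bzr1-D at adequate Pi, 3.41 and 4.43 CPM in wild type at low Pi and 3.19 and 3.37 CPM in wild type at adequate Pi. For both genes the bzr1-D libraries at low Pi were the highest, and the wild-type groups overlapped for MGD3. The differences were 1.77 ± 0.47 for MGD3 and 1.11 ± 0.33 for MGD2 (unadjusted p = 0.0034 and 0.0066, adjusted p = 1.00 for each by edgeR). MGD3 had 2.27 in Exp 1 and 0.96 in Exp 2, and it was 1.13 without wild type low Pi replicate 1 and 2.58 without replicate 2 of that group. MGD2 had 1.37 in Exp 1 and 0.53 in Exp 2, and it was 0.74 without bzr1-D low Pi replicate 1. MGD1 had a difference of -0.16 ± 0.15. The digalactosyldiacylglycerol synthases DGD1 and DGD2 had 0.02 ± 0.14 and 0.15 ± 0.18.

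Of the enzymes that take phospholipids apart, PLDZ2, a phospholipase D of the Pi starvation response, had 11.2 and 9.89 CPM in bzr1-D at low Pi, 5.30 and 5.28 CPM in bzr1-D at adequate Pi, 5.67 and 8.05 CPM in wild type at low Pi and 5.67 and 6.47 CPM in wild type at adequate Pi. The bzr1-D libraries at low Pi were the highest, and the difference was 0.83 ± 0.25. Its relative PLDZ1 had a difference of -0.01 ± 0.13. GDPD5, a glycerophosphodiester phosphodiesterase, had 24.4 and 24.1 CPM in bzr1-D at low Pi, 17.9 and 14.8 CPM in bzr1-D at adequate Pi, 21.4 and 20.4 CPM in wild type at low Pi and 22.9 and 18.3 CPM in wild type at adequate Pi. GDPD5 had a difference of 0.55 ± 0.16, with 0.53 in Exp 1 and 0.54 in Exp 2, but it overlaps AT1G74205, and without strand in the counting reads of overlapping genes cannot be told apart.

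GDPD2 rose in both genotypes and differed little between them. It had 205 and 184 CPM in bzr1-D at low Pi, 106 and 117 CPM in bzr1-D at adequate Pi, 198 and 202 CPM in wild type at low Pi and 121 and 132 CPM in wild type at adequate Pi, a difference of 0.15 ± 0.13. GDPD1, which overlaps AT3G02030, had 84.7 and 76.9 CPM in bzr1-D at low Pi, 22.6 and 20.8 CPM in bzr1-D at adequate Pi, 25.2 and 49.4 CPM in wild type at low Pi and 14.4 and 15.1 CPM in wild type at adequate Pi. The phospholipase C NPC4 had 56.1 and 38.5 CPM in bzr1-D at low Pi, 24.2 and 16.1 CPM in bzr1-D at adequate Pi, 17.8 and 23.9 CPM in wild type at low Pi and 15.2 and 10.6 CPM in wild type at adequate Pi. For both, the wild-type library of Exp 1 at low Pi stood below that of Exp 2, and the differences were 1.1 and 0.97 in Exp 1 against 0.19 and 0.10 in Exp 2. Over both experiments they were 0.58 ± 0.46 and 0.50 ± 0.38, with 0.11 to 1.17 for GDPD1 and 0.03 to 1.03 for NPC4 when 1 library was left out. PAH1 and PAH2, phosphatidic acid phosphohydrolases, had 0.07 each, and GDPD3 stayed between 0.0565 and 1.08 CPM.

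**Figure D4:**
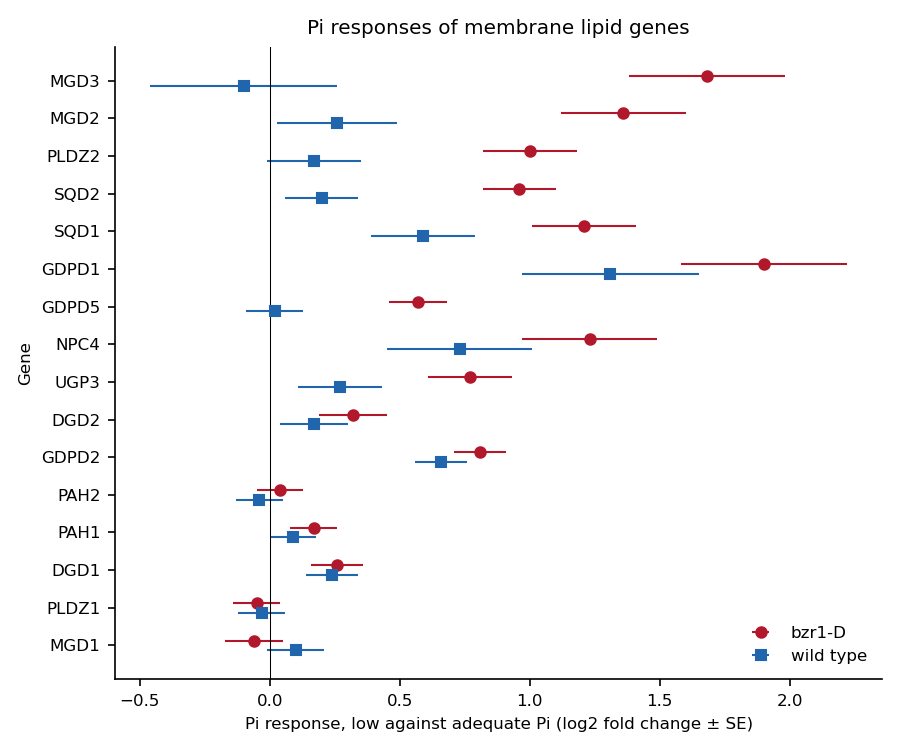
Log2 fold change at low against adequate Pi (horizontal axis, ± SE) of 16 membrane lipid genes in bzr1-D (circles) and wild type (squares), ordered by the difference; GDPD3, below 1.1 CPM, is not drawn. MGD3 (1.68 and -0.10) lies farthest apart, whereas GDPD2 (0.81 and 0.66) and DGD1 (0.26 and 0.24) lie close together.

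P1BS is in the 250-base window of 6 of the 17 genes of the 2 lipid lists (35.3%, against 5.5% of all promoters), namely GDPD1, PAH1, MGD2, GDPD5, NPC4 and PLDZ2. Of the 5 lipid genes with an unadjusted p under 0.05, MGD2, PLDZ2 and GDPD5 hold it, and their windows are shown so that the position of the element can be read. Whether it bears on the difference was not tested. They are plus-strand RefSeq TAIR10.1 sequence, chr5:6896213-6896462 for MGD2, chr3:1634944-1635193 for PLDZ2 and chr1:27910064-27910313 for GDPD5, with the element in capitals.
MGD2: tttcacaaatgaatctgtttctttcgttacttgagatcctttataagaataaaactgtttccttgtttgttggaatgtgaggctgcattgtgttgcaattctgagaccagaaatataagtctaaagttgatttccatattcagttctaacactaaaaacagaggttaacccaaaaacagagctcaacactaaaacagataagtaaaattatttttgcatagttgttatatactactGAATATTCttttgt
PLDZ2: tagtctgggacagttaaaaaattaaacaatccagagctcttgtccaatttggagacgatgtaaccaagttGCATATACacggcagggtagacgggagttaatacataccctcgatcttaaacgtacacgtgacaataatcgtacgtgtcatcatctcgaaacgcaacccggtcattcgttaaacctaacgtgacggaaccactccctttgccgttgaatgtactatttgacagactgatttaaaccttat
GDPD5: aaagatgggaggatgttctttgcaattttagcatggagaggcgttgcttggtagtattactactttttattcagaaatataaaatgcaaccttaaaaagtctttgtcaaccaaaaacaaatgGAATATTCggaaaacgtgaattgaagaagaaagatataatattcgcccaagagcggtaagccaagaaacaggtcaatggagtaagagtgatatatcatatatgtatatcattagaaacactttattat
The element starts 14, 180 and 128 bases before the annotated start of MGD2, PLDZ2 and GDPD5. These letters are not in the windows of MGD3 and SQD2. The holders PAH1 and GDPD1 had differences of 0.07 ± 0.13 and 0.58 ± 0.46.

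Of 20 tested genes of Pi transport and Pi sensing, 15 had a positive difference between the genotypes' responses and 0 had an unadjusted p under 0.05. The median was 0.07, and it was 0.85 for the Pi response in bzr1-D and 0.60 for that in wild type. SPX1, a nuclear Pi sensor that restrains PHR1, had 158 and 103 CPM in bzr1-D at low Pi, 13.2 and 6.59 CPM in bzr1-D at adequate Pi, 29.0 and 88.5 CPM in wild type at low Pi and 7.45 and 7.78 CPM in wild type at adequate Pi. All 4 low-Pi libraries lay above the 4 adequate-Pi ones, and the wild-type library of Exp 1 was the lowest of the 4. The difference was 0.77 ± 1.19, and without wild type low Pi replicate 1 it was -0.08 ± 0.36, whereas without replicate 2 of that group it was 2.08 ± 0.37 (adjusted p = 0.63 by edgeR, within 0.63 to 1.00 over the settings run).

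Many members that rose at low Pi in both genotypes, but not all, were lowest in the wild-type library of Exp 1 among the 4 low-Pi libraries. These were IPS1, SPX2, SPX3, PHF1, AT4, PHT1;2, PHT1;4 and PHT1;8, besides SPX1. IPS1, for example, had 17.1 and 13.7 CPM in bzr1-D at low Pi and 0.716 and 6.32 CPM in wild type at low Pi. The part of that library in the differences was not tested. PHT1;1 was highest there, with 331 and 307 CPM in wild type at low Pi and 191 and 223 CPM in bzr1-D at low Pi. PHT1;9, which also rose in both genotypes, was lowest in the bzr1-D low-Pi library of Exp 2. PHO1 and PHO2, which did not rise at low Pi in either genotype, were lowest in the wild-type low-Pi library of Exp 2. AT4, an RNA that mimics the target of miR399, had 270 and 322 CPM in bzr1-D at low Pi, 85.1 and 64.1 CPM in bzr1-D at adequate Pi, 69.2 and 298 CPM in wild type at low Pi and 24.1 and 26.9 CPM in wild type at adequate Pi. The difference for AT4 was -0.77 ± 1.05. PHT1;4, an uptake transporter of the root surface, had 203 and 120 CPM in bzr1-D at low Pi, 81.6 and 30.6 CPM in bzr1-D at adequate Pi, 101 and 134 CPM in wild type at low Pi and 47.4 and 36.8 CPM in wild type at adequate Pi, a difference of 0.02 ± 0.72. PHF1, which helps Pi transporters leave the endoplasmic reticulum, had a difference of 0.15 ± 0.26. The regulators PHR1, PHL1 and SPX4 had 0.04 ± 0.12, 0.10 ± 0.14 and 0.04 ± 0.18, and PHO1, which loads Pi into the xylem, had -0.00 ± 0.20.

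Levels near 0 in wild type make 3 transporters hard to compare. PHT1;8 had 12.9 and 11.6 CPM in bzr1-D at low Pi, 1.87 and 1.37 CPM in bzr1-D at adequate Pi, 0.716 and 1.73 CPM in wild type at low Pi and 0.00 and 0.135 CPM in wild type at adequate Pi. Its fitted difference was -1.08 ± 0.99, whereas with a pseudocount of 0.5 CPM it was 1.22 in Exp 1 and 0.88 in Exp 2, so its direction depends on how the 0 is treated. PHT1;2 had 153 and 175 CPM in bzr1-D at low Pi, 92.5 and 67.3 CPM in bzr1-D at adequate Pi, 0.716 and 4.70 CPM in wild type at low Pi and 0.152 and 0.270 CPM in wild type at adequate Pi. PHT1;2 and PHT1;3 are near-identical copies of PHT1;1, and the sources used here do not say how shared reads were counted, so their values are uncertain.

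Among phosphatases, nucleases and enzymes of phosphoenolpyruvate (PEP) metabolism, 12 of 15 members had a positive difference, with a median of 0.19. PAP7, a purple acid phosphatase, had 66.6 and 56.5 CPM in bzr1-D at low Pi, 48.1 and 31.5 CPM in bzr1-D at adequate Pi, 38.4 and 37.9 CPM in wild type at low Pi and 37.8 and 30.5 CPM in wild type at adequate Pi. Its bzr1-D libraries at low Pi were the highest, and the difference was 0.47 ± 0.17 (unadjusted p = 0.0188, adjusted p = 1.00 by edgeR). Leaving out wild type low Pi replicate 1 gave 0.29, as did leaving out replicate 2 of bzr1-D at adequate Pi, and leaving out replicate 1 of bzr1-D at adequate Pi gave 0.70. PS2, an inorganic pyrophosphatase, had 28.9 and 13.2 CPM in bzr1-D at low Pi, 3.33 and 2.73 CPM in bzr1-D at adequate Pi, 5.39 and 9.46 CPM in wild type at low Pi and 2.99 and 2.47 CPM in wild type at adequate Pi. Its difference was 2.18 in Exp 1 and 0.34 in Exp 2, or 1.29 ± 0.79 over both. PAP17, a phosphatase known to rise when Pi is short, had 0.36 ± 0.75 and overlaps AT3G17800.

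PCK2, a PEP carboxykinase, had a negative difference. It had 74.5 and 68.2 CPM in bzr1-D at low Pi, 41.5 and 43.8 CPM in bzr1-D at adequate Pi, 95.0 and 97.6 CPM in wild type at low Pi and 47.0 and 45.7 CPM in wild type at adequate Pi. All 4 low-Pi libraries lay above the 4 adequate-Pi ones, and both wild-type libraries at low Pi lay above both of bzr1-D. It rose by 0.74 ± 0.09 in bzr1-D (adjusted p = 0.0197) and by 1.05 ± 0.08 in wild type (adjusted p = 9.4e-04), and the difference was -0.31 ± 0.12 (unadjusted p = 0.0233, adjusted p = 1.00), all by edgeR. The PEP carboxylase kinase PPCK1, by contrast, had 0.28 ± 0.13. In the list of local Pi sensing, which holds the ferroxidase LPR1 and the malate channel ALMT1, 5 of 10 members were positive and 0 had an unadjusted p under 0.05. Its median was -0.01.

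Root hair genes had a positive difference in 19 of 23 members (82.6%, against 51.1% of all features), 18 of them in both experiments. The list median was 0.28 (0.35 in Exp 1 and 0.14 in Exp 2). The median was 0.06 without wild type low Pi replicate 1 and 0.48 without bzr1-D low Pi replicate 2. LRL3 and RSL1, basic helix-loop-helix factors of root hair growth, had an unadjusted p under 0.05. LRL3 had 24.9 and 21.3 CPM in bzr1-D at low Pi, 21.0 and 14.8 CPM in bzr1-D at adequate Pi, 28.6 and 24.2 CPM in wild type at low Pi and 29.4 and 24.5 CPM in wild type at adequate Pi, so it was lowest in bzr1-D at adequate Pi within each experiment. The difference was 0.41 ± 0.15. COW1, a phosphatidylinositol transfer protein of hair tips, had 39.7 and 23.5 CPM in bzr1-D at low Pi, 21.8 and 11.6 CPM in bzr1-D at adequate Pi, 32.7 and 35 CPM in wild type at low Pi and 31.7 and 24.8 CPM in wild type at adequate Pi. The difference for COW1 was 0.63 ± 0.34, and for the hair expansin EXPA7 it was 0.46 ± 0.40. In both, as in RSL2 and RHS10, the bzr1-D libraries at adequate Pi held the lowest level within each experiment. RSL1 did not share this pattern and was lowest in wild type at low Pi within each experiment. It had 4.29 and 3.33 CPM in bzr1-D at low Pi and 4.11 and 1.99 CPM in bzr1-D at adequate Pi. In wild type it had 1.93 and 1.3 CPM at low Pi and 2.94 and 1.75 CPM at adequate Pi. The difference for RSL1 was 0.88 ± 0.35.

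The flavonoid list had a positive difference in 8 of 8 members and in both experiments for each, with a median of 0.36. The remaining 2 of its 10 members had too few counts. CHS, F3'H and UGT78D2 had an unadjusted p under 0.05. UGT78D2, which adds glucose to flavonols, had 41.2 and 27.8 CPM in bzr1-D at low Pi, 45.5 and 28.6 CPM in bzr1-D at adequate Pi, 41.6 and 28.5 CPM in wild type at low Pi and 52.3 and 43.4 CPM in wild type at adequate Pi. Wild type at adequate Pi stood highest within each experiment, and the difference was 0.38 ± 0.15, or 0.21 to 0.55 with 1 library left out. CHS, the first enzyme of the pathway, had 0.37 ± 0.15 and overlaps AT5G13940. For MYB12, the activator of flavonol synthesis, the difference was 0.35 ± 0.16 (unadjusted p = 0.0504 by edgeR). The median Pi response of the list was 0.01 in bzr1-D and -0.34 in wild type.

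Brassinosteroid perception and signalling genes had a negative difference in 13 of 14 members, 7 of them in both experiments, with a median of -0.14. The values were small, and 0 members had an unadjusted p under 0.05. BZR1 had -0.26 ± 0.13, its paralogue BES1 -0.23 ± 0.13 and the receptor BRI1 -0.18 ± 0.13. Synthesis and inactivation genes had a median of 0.06. DWF4 and CPD, synthesis enzymes that BZR1 is known to repress, had differences of 0.10 ± 0.23 and -0.01 ± 0.13. CPD had 23.5 and 27.2 CPM in bzr1-D at low Pi, 23.0 and 25.5 CPM in bzr1-D at adequate Pi, 39.2 and 48.0 CPM in wild type at low Pi and 36.0 and 47.5 CPM in wild type at adequate Pi. CPD thus lay lower in all 4 bzr1-D libraries than in any wild-type one, at either Pi supply. The growth genes raised by brassinosteroid, apart from XTH17, had 0 members with an unadjusted p under 0.05, and the list median was -0.12 over 13 members, or -0.22 to 0.02 with 1 library left out.

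In the auxin list 22 of 25 members had a negative difference, with a median of -0.09 that was 0.00 without bzr1-D low Pi replicate 2. YUC9, an auxin synthesis enzyme, had 4.75 and 4.13 CPM in bzr1-D at low Pi, 4.89 and 5.03 CPM in bzr1-D at adequate Pi, 6.94 and 7.67 CPM in wild type at low Pi and 6.03 and 5.17 CPM in wild type at adequate Pi. It was highest in wild type at low Pi, and the difference was -0.55 ± 0.24. The auxin transporters PIN2 and AUX1 had -0.10 ± 0.14 and -0.08 ± 0.12. Suberin and Casparian strip genes had a positive difference in 13 of 16 members, with a median of 0.13 (-0.01 in Exp 1 and 0.28 in Exp 2), and PER64, a peroxidase of the Casparian strip that overlaps AT5G42190, had 0.33 ± 0.14. Root meristem and cell division genes had a median of -0.02 over 15 members.

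Iron deficiency genes spread widely between experiments. IRT1, the root iron transporter, had 102 and 21.1 CPM in bzr1-D at low Pi, 106 and 126 CPM in bzr1-D at adequate Pi, 73.0 and 86.9 CPM in wild type at low Pi and 68.4 and 219 CPM in wild type at adequate Pi. In Exp 2 it was lower at low Pi in both genotypes, and in Exp 1 the 2 supplies differed little in either. The fitted difference was -0.04 ± 1.5, with -0.14 in Exp 1 and -1.22 in Exp 2, and for the ferric reductase FRO2 it was 0.01 ± 1.57. Of 25 members tested, 15 were positive, 0 had an unadjusted p under 0.05 and the median was 0.03. Only 4 were positive in both experiments and 7 were negative in both. The median was -0.14 in Exp 1 and 0.09 in Exp 2, and -0.44 to 0.31 with 1 library left out. The iron storage list had a median of 0.18 over 7 members, with -0.16 in Exp 1 and 0.48 in Exp 2.

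**Figure D5:**
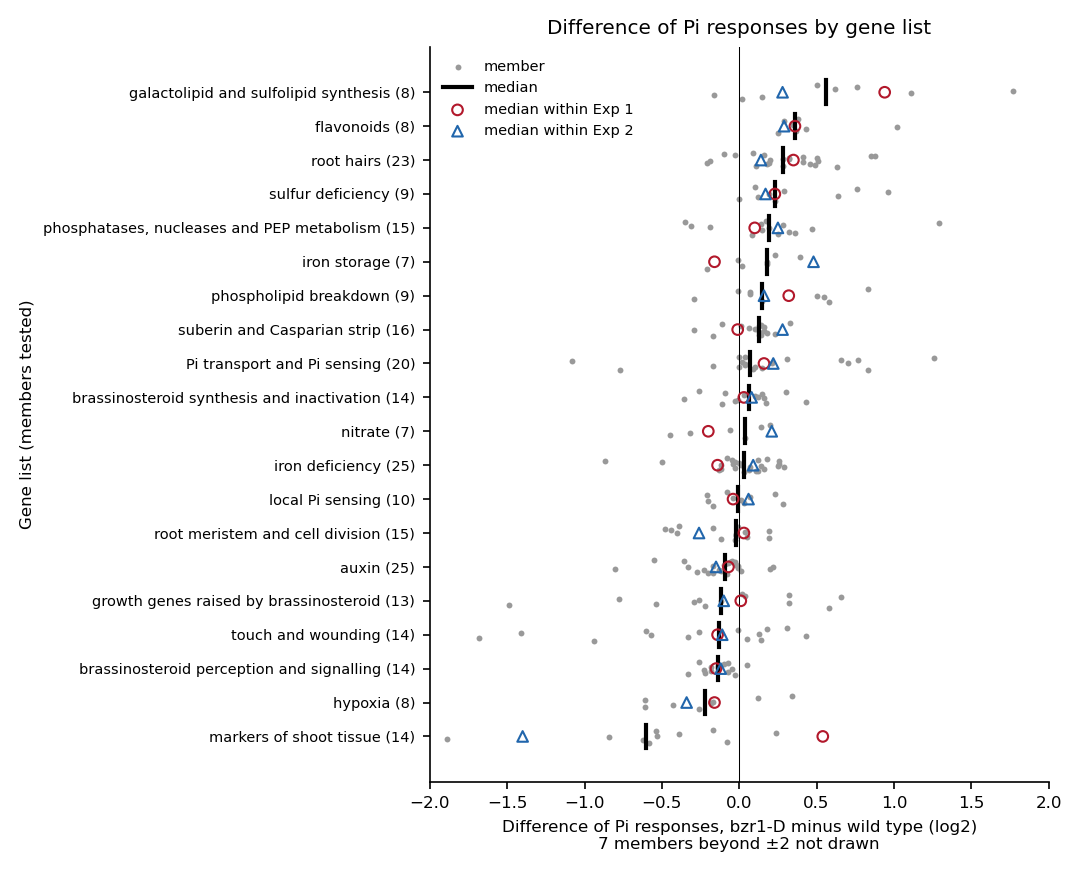
Difference of the log2 Pi responses, bzr1-D minus wild type (horizontal axis), for the members tested of each gene list (grey points), with the list median (bar) and the medians within Exp 1 (circle) and Exp 2 (triangle). Galactolipid and sulfolipid synthesis has the highest median (0.56) and shoot markers the lowest (-0.60), whose medians in the 2 experiments lie on opposite sides of 0; 7 members beyond ±2 are not drawn.

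The shoot markers summed to 100 and 97.6 CPM in bzr1-D at low Pi, 109 and 91.1 CPM in bzr1-D at adequate Pi, 56.4 and 98.4 CPM in wild type at low Pi and 65.1 and 55.0 CPM in wild type at adequate Pi. Their median difference was 0.54 in Exp 1 and -1.40 in Exp 2, and 13 of 14 were negative over both. The touch and wounding list summed to 395 and 378 CPM in bzr1-D at low Pi, 331 and 303 CPM in bzr1-D at adequate Pi, 472 and 851 CPM in wild type at low Pi and 334 and 500 CPM in wild type at adequate Pi. Wild type at low Pi in Exp 2 was thus the highest library for touch genes. The list median was -0.13, but its sign rested on single libraries, being 0.28 when bzr1-D adequate Pi replicate 1 was left out and -0.44 when replicate 2 of wild type at adequate Pi was. JAZ10, a repressor of jasmonate signalling, had 2.4 and 1.70 CPM in bzr1-D at low Pi, 1.51 and 1.80 CPM in bzr1-D at adequate Pi, 4.40 and 11.5 CPM in wild type at low Pi and 2.18 and 1.62 CPM in wild type at adequate Pi. The part of shoot tissue or of handling in the differences was not tested.

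Leaving out 1 wild-type library changed the number of calls. Without wild type low Pi replicate 1, 11 features were called higher (0.0534%) and 22 lower (0.107%) by edgeR, and wild type at low Pi was then represented by its replicate 2 alone, assumed to vary like the other groups. All features called in that fit had the same direction with all libraries. These include the libraries that gave the calls, so the agreement was largely built in. Those called lower included shoot markers of the list and genes that RefSeq names as peroxidases. Peroxidases were not one of the gene lists. The peroxidase AT4G36430 had 56.7 and 86.6 CPM in bzr1-D at low Pi, 23.2 and 31.6 CPM in bzr1-D at adequate Pi, 51.1 and 188 CPM in wild type at low Pi and 13.7 and 24.6 CPM in wild type at adequate Pi. Its difference was -1.66 ± 0.16 without that library (adjusted p = 5.8e-04 by edgeR) and -1.13 ± 0.62 with it (adjusted p = 1.00), the range over 16 settings being 5.8e-04 to 1.00. Prx37, AT2G18150 and the dehydrin AT4G38410 were also called lower, with -0.93, -1.11 and -2.96 over all libraries. LHCB1.1, of the light-harvesting antenna, had 3.22 and 0.0565 CPM in bzr1-D at low Pi, 3.28 and 0.249 CPM in bzr1-D at adequate Pi, 0.165 and 5.57 CPM in wild type at low Pi and 0.557 and 0.0899 CPM in wild type at adequate Pi. Its difference was 0.65 in Exp 1 and -3.79 in Exp 2.

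Among the 11 called higher without that library were AT3G19430, AGP13 and AGP22, described above, together with MC9 and AT5G46890. MC9, a metacaspase of xylem cell clearance, had 54.3 and 56.6 CPM in bzr1-D at low Pi, 54.5 and 44.0 CPM in bzr1-D at adequate Pi, 44.6 and 26.9 CPM in wild type at low Pi and 51.2 and 50.5 CPM in wild type at adequate Pi. Its wild-type library at low Pi in Exp 2 was the lowest of the 8, and the difference was 0.72 ± 0.25 with all libraries and 1.04 ± 0.17 without replicate 1. AT5G46890, a lipid transfer protein-like gene, had 0.59 ± 0.22 and 0.92 ± 0.14. Without bzr1-D low Pi replicate 1, 2 features were called higher (0.00973%, AT4G25250 and AT3G19430), and without bzr1-D low Pi replicate 2 there were 4 (0.0194%, AT3G19430, AT4G11210, UGT84A2 and SQD2). AT4G25250 and AT4G11210 were named after their values were seen. AT3G19430 was called in each of these 3 fits, in which 1 group was represented by 1 library alone, assumed to vary like the other groups.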

How the data were processed

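Polyadenylated root RNA of 4 groups of 2 libraries was sequenced as 50-base single reads, per the labels' protocols. The authors deposited whole-number read counts per feature with no normalization; TopHat2 2.0.11, HTSeq 0.6.1, DESeq2 1.2.8 and the build TAIR10 are listed without role or order, per the submitters' processing notes. Neither strandedness nor the handling of multiply matching reads is given in the sources used here, so overlapping genes and near-identical copies are uncertain. Tissue and strain stand under each other's tag in the labels, and the groups were taken from the sample titles. Coordinates of features are those of the deposited table, and 32940 of 40246 features matched a TAIR10.1 locus.

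The deposited counts entered edgeR's quasi-likelihood test (edgeR 4.0.16, R 4.3.3) with robust estimation, TMM scaling, the default filter (minimum count 10), 1 coefficient per group and the Exp number as block, over all 8 libraries with 3 residual degrees of freedom. The interaction was the bzr1-D Pi response minus the wild-type one, with Benjamini-Hochberg adjustment of its p-values over 20262 features. SEs were derived as the absolute log2 fold change over the root of the F statistic. Values within an Exp are log2 differences of CPM with a pseudocount of 0.5. The scripts were tested on simulated data.

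The labels number the experiments without saying what same-numbered libraries share. They deviated together in each of the 6 pairs of groups (r 0.345 to 0.685), so the numbers were taken to pair the libraries. The pooled biological coefficient of variation was 0.0858 with the block and 0.169 without. A chi-square per degree of freedom of 16.9 to 36.3 between replicates showed no copied library. P-values measure the spread between these libraries, which was larger than counting error alone.

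The comparison and the 19 gene lists were chosen with earlier results of these data known. Named were features called by edgeR, the 12 per direction with the smallest p (same sign in both experiments, mean of at least 1 CPM), list members with an unadjusted p under 0.05, calls of DESeq2 1.42.0 or limma 3.58.1 (voom), the 5 per direction with the smallest p where leaving out 1 library gave over 10 calls, the lipid lists, BZR1, DWF4, CPD and SPX1. Other genes are named as members of the lists. Alternatives were the fit without block, other scalings, filters and tools, each library left out and each Exp alone. Promoters are the 250 bases before the RefSeq gene start, searched on both strands.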

Additional observations from a re-analysis of the deposited data

How the results depend on the processing

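The 0 features called higher and 0 lower stayed at 0 and 0 without the replicate block, with DESeq2 size factors, upper quartile scaling, a mean of at least 1 CPM, limma-voom and no robust estimation. Without a filter on low counts, and with DESeq2, 1 was called higher, AT3G19430 in both. Leaving out 1 library at a time gave 0 to 11 higher and 0 to 22 lower. At an unadjusted p under 0.05, the 371 higher and 275 lower became 73 and 86 without the replicate block and 164 and 62 with DESeq2, and 176 to 611 and 166 to 449 with 1 library left out. Of 62 named features, 51 kept the direction of the difference under each setting run. The 12 per direction were chosen for the same sign in both experiments, and the settings share libraries. The count of 51 was thus partly fixed by the choice of features. CPD was 0.00 without the replicate block and 0.08 within Exp 2. Within Exp 2, DGD1 was -0.11, DWF4 -0.01, PLDZ1 0.21 and UGP3 -0.00. Within Exp 1, GDPD3 was 0.32, LHCB1.1 0.65 and PAH2 -0.01. With 1 library left out, the values ran from -0.10 to 0.09 for CPD, -0.05 to 0.12 for DGD1, -0.03 to 0.32 for DGD2, -0.22 to 0.34 for DWF4, -1.76 to 0.65 for GDPD3, -8.16 to 1.74 for LHCB1.1, -0.03 to 0.20 for PAH1, -0.01 to 0.17 for PAH2, -0.10 to 0.10 for PLDZ1 and -0.08 to 2.08 for SPX1. The cause was not tested. Scaling turned none of the 62 named features. With 2 libraries per group, differences under about 0.25 on the log2 scale did not reach an unadjusted p of 0.05.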

Other observations

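Sulfur deficiency genes, which answer a shortage of sulfate, had a positive difference in 9 of 9 members tested, 5 of them in both experiments, with a median of 0.23 against 0.00 over all features. The median was 0.09 without bzr1-D low Pi replicate 1 and 0.40 without wild type low Pi replicate 2. LSU2, a small protein of the sulfur response, had 5.21 and 2.88 CPM in bzr1-D at low Pi, 2.24 and 0.870 CPM in bzr1-D at adequate Pi, 5.06 and 4.59 CPM in wild type at low Pi and 5.47 and 2.25 CPM in wild type at adequate Pi. It was lowest in bzr1-D at adequate Pi within each experiment, and the difference was 0.96 ± 0.41 (unadjusted p = 0.0378, adjusted p = 1.00 by edgeR). It was 1.16 in Exp 1 and 0.41 in Exp 2, and 0.46 without wild type low Pi replicate 1 and 1.46 without its replicate 2. SULTR1;1, a root sulfate transporter, had 2.25 and 1.19 CPM in bzr1-D at low Pi, 0.988 and 0.497 CPM in bzr1-D at adequate Pi, 2.70 and 2.49 CPM in wild type at low Pi and 2.68 and 1.3 CPM in wild type at adequate Pi, a difference of 0.76 ± 0.46. The transporter SULTR1;2 had 0.10 ± 0.18. LSU2 was the only member of this list with an unadjusted p under 0.05.

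Hypoxia genes had a negative difference in 6 of 8 members, with a median of -0.22 that was -0.04 without wild type low Pi replicate 2 and -0.38 without bzr1-D low Pi replicate 1. ADH1, an alcohol dehydrogenase gene that overlaps AT1G77122, had 3.22 and 2.83 CPM in bzr1-D at low Pi, 4.06 and 3.6 CPM in bzr1-D at adequate Pi, 3.25 and 4.32 CPM in wild type at low Pi and 2.99 and 3.28 CPM in wild type at adequate Pi. Within each experiment it was lower at low Pi in bzr1-D and higher at low Pi in wild type, and the difference was -0.61 ± 0.31 (unadjusted p = 0.0715 by edgeR). Nitrate genes had a median of 0.04 over 7 members. The nitrate reductases NIA1 and NIA2 had -0.45 ± 0.38 and -0.32 ± 0.25. The nitrate transporter NRT2.1, at or below 0.936 CPM in each library, had 2.08 ± 1.03.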
